A study of Homo sapiens with 12 samples.

Results

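The genes described here are 10 inflammatory genes: the cytokines IL6, LIF, IL11, IL1A and IL1B, the chemokines CXCL8, CXCL1 and CCL2, and the NF-kB feedback genes TNFAIP3 and NFKBIA. They were found by symbol, as the probe sets whose platform annotation named exactly 1 of these genes. This gave 16 probe sets, out of 41091 with 1 gene, and 10 of 19775 annotated genes. For 6 genes there were 2 probe sets, and for 4 there was 1. Of the 10 genes, 7 exceeded a value of 4 on at least 3 of the 12 arrays and were tested; IL11, IL1A and CXCL1 did not.

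The study asked which expression changes mark kidney toxicity. HK-2, an immortalized epithelial line from the human proximal tubule, was given a high dose of a compound labelled Ota, or the matching amount of vehicle, for 24 h or 72 h. RNA of each of the 4 groups (Ota for 24 h, control for 24 h, Ota for 72 h, control for 72 h) was hybridised to 3 Affymetrix arrays, called biological replicates in the labels. The labels spell out neither the compound's name nor its dose. All groups share a medium with EGF, hydrocortisone, insulin, transferrin and selenite, and were treated near confluence. A single cell line was used, and nothing else in the labels says that replicates were separate cultures, so p-values measure only the spread between these samples. Because RNA was taken from whole wells, fewer cells expressing a gene and less RNA per cell cannot be told apart.

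NF-kB is a family of transcription factors held in the cytoplasm by inhibitors such as IkB-alpha, the product of NFKBIA. Signals from TNF, IL-1 or cell damage release it, and it then acts on cytokine and chemokine genes and on its own inhibitors, NFKBIA and TNFAIP3, which close a negative feedback loop. In injured proximal tubule cells, chemokines such as CCL2 and CXCL8 are known for drawing in leukocytes, while IL6, LIF and IL11 signal through the shared receptor chain gp130.

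The promoters of 8 of the 10 genes were in the RefSeq table for GRCh38.p14, in 9 entries; LIF and CCL2 were not. The 150 bases just before the annotated start, read 5′ to 3′ on the gene's strand, are printed for 6 genes to show where they carry, or lack, the sequence that NF-kB is known to bind. Capitals mark matches on either strand to the kB consensus, to its variant GGANTTTCC, or to TGANTCA, the sequence known for binding AP-1.
IL6, chr7:22727050-22727199, plus strand: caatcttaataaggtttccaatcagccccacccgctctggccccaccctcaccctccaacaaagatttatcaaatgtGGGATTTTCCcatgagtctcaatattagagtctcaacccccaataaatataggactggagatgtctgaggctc
CXCL8, chr4:73740419-73740568, plus strand: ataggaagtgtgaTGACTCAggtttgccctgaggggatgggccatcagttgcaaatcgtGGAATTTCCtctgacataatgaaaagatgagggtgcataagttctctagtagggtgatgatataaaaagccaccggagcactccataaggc
CXCL1, chr4:73869243-73869392, plus strand: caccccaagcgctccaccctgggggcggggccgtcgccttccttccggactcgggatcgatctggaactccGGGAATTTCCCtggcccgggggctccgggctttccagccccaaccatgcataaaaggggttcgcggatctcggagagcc
TNFAIP3, chr6:137867109-137867258, plus strand: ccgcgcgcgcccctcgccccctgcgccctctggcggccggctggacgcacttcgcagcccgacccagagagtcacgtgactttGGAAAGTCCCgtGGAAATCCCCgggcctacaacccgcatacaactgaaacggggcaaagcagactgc
NFKBIA, chr14:35404750-35404899, minus strand: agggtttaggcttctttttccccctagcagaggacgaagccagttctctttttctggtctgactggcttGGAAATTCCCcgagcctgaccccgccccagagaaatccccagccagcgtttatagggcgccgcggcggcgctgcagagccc
IL11, chr19:55370464-55370613, minus strand: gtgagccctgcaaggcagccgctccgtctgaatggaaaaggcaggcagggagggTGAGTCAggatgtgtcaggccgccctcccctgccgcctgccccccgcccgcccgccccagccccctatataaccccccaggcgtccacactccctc

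A kB match of either form lay within the 300 bases from 250 before to 50 after the start in 5 of the 8 genes: IL6, CXCL8, CXCL1, TNFAIP3 and NFKBIA. Such a match was present in 12.1% of 35116 promoters of that length (11.3% for the consensus and 1.64% for GGANTTTCC, which can overlap it). In IL6 it began 73 bases before the start, in CXCL8 91, and in NFKBIA 81. NFKBIA also held a separate GGANTTTCC match that began 242 bases before the start, outside the bases printed. TNFAIP3 carried a pair of consensus matches, beginning 67 and 55 bases before the start. In CXCL1 the consensus matched on both strands at overlapping positions 79 to 70 and 78 to 69. TGANTCA, found in 7.71% of promoters, lay in CXCL8, IL11 and IL1A, 3 of the 8. These matches describe the letters alone, and genes with a kB match include CXCL1, at background on every array, and CXCL8 and TNFAIP3, called in opposite directions at 24 h.

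The values below are deposited GCRMA signals on a log2 scale. The words rose and fell are kept for genes with a Benjamini-Hochberg adjusted p under 0.05 in limma, taken over 10729 tested genes. Errors are SD for group means (n = 3 arrays) and SE for log2 fold changes. Measures that do not depend on these genes also differed between the groups. The 27 probe sets for poly-A spike-ins, bacterial RNAs added to a sample as standard, read higher with Ota by 1.65 at 24 h and 0.79 at 72 h, and the median tested gene was dimmer by 0.56 and 0.28 (exact permutation test, two-sided p = 0.1 each, the smallest that 3 against 3 arrays can give). With the same p, 18S RNA read higher by 1.58 and 1.34, hybridization controls by 0.93 and 0.42, and the 3' minus 5' difference of ACTB, a sign of RNA quality, by 0.58 at 72 h. The ACTB difference was 0.046 at 24 h (exact p = 0.9). The part of these measures in the results was not tested. A scaling that takes the spike-ins as fixed therefore shifts every Ota change downward, and one that centres each array on its median shifts it upward. As for the cell type, all 8 epithelial markers were measured, among them EPCAM, KRT8 and KRT18, with KRT19 at 9.57 with Ota and 11.99 without at 24 h and CDH1 at 5.62 and 8.80 at 72 h. Their directions were mixed. At 24 h KRT7 (7.41 with Ota and 6.42 without), EPCAM (13.03 and 12.69), KRT8, CDH2 and CDH6 averaged higher with Ota. KRT18, KRT19 and CDH1 averaged lower. At 72 h KRT8 averaged higher (11.28 and 10.68) and the others lower. Of 11 proximal tubule markers only PAX8 exceeded the filter, and LRP2, CUBN and AQP1 were under 4 on every array. None of 8 leukocyte markers passed it either. Their summed level (log2) was 5.77 to 6.33 on the 24 h Ota arrays and 5.51 to 5.53 on the controls, 5.53 to 5.57 and 5.52 to 5.54 at 72 h, with PTPRC at or under 3.08 everywhere. ITGAM (4.45 against 2.38) and CD3D (3.42 against 2.76) had the largest differences at 24 h. Of 7 fibroblast markers COL1A1, DCN and LUM were tested. DCN averaged 11.73 and 11.34 with and without Ota at 24 h and 10.09 and 9.55 at 72 h, and LUM 9.73 and 9.04, then 8.81 and 7.26. COL1A1 went the other way at 24 h (6.18 with Ota and 8.11 without) and averaged 7.63 and 7.08 at 72 h. The part of these markers in the results was not tested.

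Before any comparison, 1 array stood apart most for these genes. On replicate 3 of the 72 h Ota group, IL6 exceeded the mean of the other 2 arrays by 4.13, which ranked 1 of 10729 genes. CXCL8 exceeded it by 2.01 (rank 13), CCL2 by 1.51 (rank 41), TNFAIP3 by 1.39 (rank 51) and NFKBIA by 1.10 (rank 126). LIF (0.79) and IL1B (0.66) were higher as well, so that 7 of 7 tested genes lay above the other 2 arrays and 5 of them by more than 1, against 48.5% and 1.74% of all genes. On replicate 3 of the 72 h controls 6 of the 7 were above the other 2 arrays, beside 48.8% of all genes. None was above by more than 1, where only 0.26% of all genes were. The 6 still ranked high among the 10729 genes: CCL2 116, CXCL8 175, IL6 604, TNFAIP3 700, LIF 755 and NFKBIA 828. IL1B was lower (-0.23, rank 9242). Replicate 3 of both 72 h groups thus shared this direction for 6 of the 7, by less in the controls. On replicate 3 of the 24 h controls all 7 were above the other 2 arrays, beside 60.4% of all genes. On replicate 3 of the 24 h Ota group only 3 of the 7 were, beside 56.8% of all genes. The median tested gene of the 72 h Ota array was 7.65, against 7.74 and 7.65 on the other 2. Its spike-in mean was 7.88 against 8.20 and 8.53 (72 h control mean 7.41). Its 3' minus 5' difference of ACTB was 1.67 against 2.32 and 1.92 (control mean 1.39). The part of these measures in its high values was not tested. Results that rest on this array are given with and without it.

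**Figure D1:**
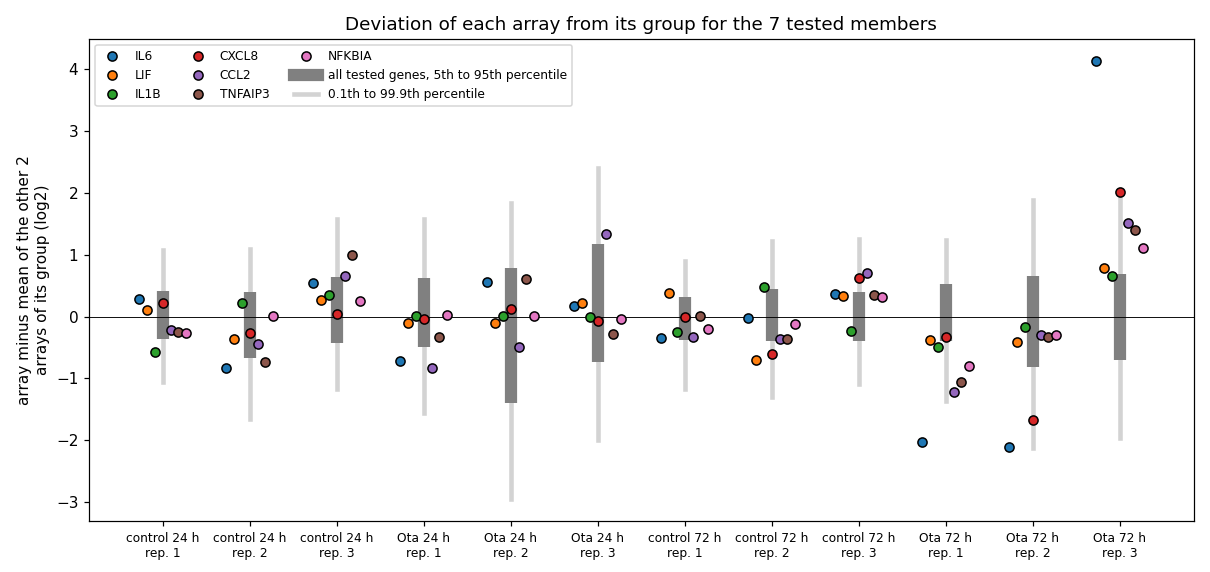
For each of the 12 arrays (x axis) the points show each tested gene's value minus the mean of the other 2 arrays of its group (y axis, log2); dark bars span the 5th to 95th percentiles of all tested genes, and light bars leave out 0.1% of them at each end. On replicate 3 of the 72 h Ota group all 7 points lie above 0, with IL6 at 4.13.

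IL6, a cytokine of the acute phase response, was higher with Ota at 72 h on every array. At 72 h it read 6.12, 6.07 and 10.23 on the Ota arrays and 2.39, 2.60 and 2.87 on the controls. Every Ota array lay above every control, and the controls lay under the filter value of 4, near background. IL6 passed the filter on 5 arrays, all with Ota, so it was tested only because it was high there, and the size of its change has no reliable value. The fitted log2 fold change was 4.85 ± 0.85 (limma adjusted p = 4.0e-04; 0.0039 with no filter). Without the high replicate 3 it was 3.48 (adjusted p = 6.35e-06). At 24 h IL6 read 3.96, 4.81 and 4.55 with Ota and 3.64, 2.90 and 3.82 in controls. These groups did not overlap, but the change of 0.99 ± 0.85 did not pass the test (adjusted p = 0.334). It passed once replicate 3 of the later Ota group was left out of the shared spread (adjusted p = 0.009), and its sign turned with spike-in scaling (-0.67). The Ota effect was larger at 72 h than at 24 h by 3.87 ± 1.20 (adjusted p = 0.0197; 0.0747 and not called with no filter). In order of their means the groups ran from control at 72 h (2.62 ± 0.24) over control at 24 h (3.45 ± 0.49) and Ota at 24 h (4.44 ± 0.43) to Ota at 72 h (7.48 ± 2.39); of these neighbours only the last pair differed past the test (3.04, adjusted p = 0.00906; 1.66 and adjusted p = 0.0011 without Ota 72 h replicate 3). Without that array the difference between the control groups, unchanged at -0.83, was called as well (limma adjusted p = 0.0455). The array is in neither control group, so only the shared spread became smaller, and every control value was under 4.

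LIF, leukemia inhibitory factor, a cytokine of the same receptor family, rose at 72 h by less and more evenly. It read 7.52, 7.49 and 8.29 with Ota and 6.45, 5.72 and 6.41 in controls. All Ota arrays were higher, by 1.58 ± 0.25 (limma adjusted p = 1.9e-04; 1.31 without replicate 3). At 24 h it read 6.99, 6.99 and 7.21 against 6.57, 6.26 and 6.67. Here too the groups were apart, yet the change of 0.57 ± 0.25 missed the threshold (adjusted p = 0.0678). With the replicate number as a block, which pairs the arrays at 24 h, it passed (adjusted p = 0.028). Scaling decided its sign at 24 h: centring on the median gave 1.13 (adjusted p = 0.0017) and the 27 spike-ins gave -1.08 (adjusted p = 0.0088), and with the spike-ins the 72 h rise was 0.78 and no longer called (adjusted p = 0.062). The effect at 72 h exceeded that at 24 h by 1.01 ± 0.35 (adjusted p = 0.033). That call was lost when any of 6 arrays was left out (Ota 24 h replicates 1 and 2, Ota 72 h replicate 3, control 24 h replicates 1 and 3, control 72 h replicate 2; 0.75 to 0.98, adjusted p 0.052 to 0.079) or the arrays were centred (0.73, adjusted p = 0.11).

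IL11, the third of the gp130 cytokines here, was at background in all controls. One of its probe sets read 3.38, 4.06 and 4.24 on the 72 h Ota arrays, against 2.50, 2.49 and 2.51 in the controls. At 24 h it read 2.72, 2.55 and 2.58 with Ota and 2.48, 2.49 and 2.49 without. All 3 Ota arrays were above the controls at each time, but only 2 arrays in the series exceeded 4, so IL11 was not among the tested genes. In a fit of every probe set with 1 gene and no filter, added after the values were seen, the 72 h difference was 1.39 ± 0.18 (limma adjusted p = 4.1e-04) and the difference between times 1.27 ± 0.26 (adjusted p = 0.00887). The other IL11 probe set lay between 3.27 and 3.29 on 11 arrays and at 3.83 on Ota 24 h replicate 2. The unfiltered fit of every probe set also called CXCL1 at 24 h, for a difference of only 0.041 ± 0.013 between background values (limma adjusted p = 0.042). A call in that fit therefore does not separate signal from background.

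**Figure D2:**
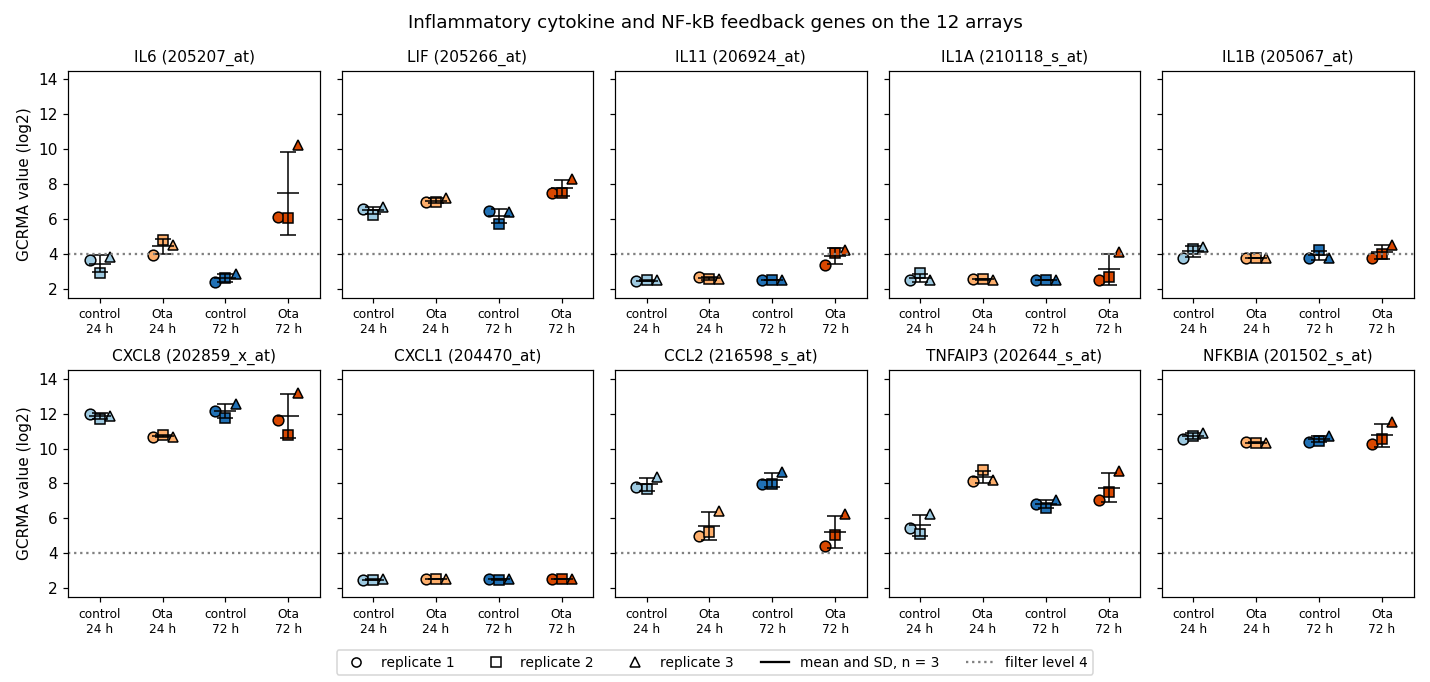
Each panel shows 1 gene's probe set on the 12 arrays (y axis, GCRMA value on a log2 scale; x axis, group), with symbols for replicate number, bars for mean and SD (n = 3) and a dotted line at the filter level of 4. IL6 reaches 10.23 on replicate 3 of the 72 h Ota group, CCL2 is lower in both Ota groups, and CXCL1 lies at 2.49 to 2.55 throughout.

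IL1A and IL1B encode the IL-1 cytokines, which activate NF-kB through the IL-1 receptor. Neither was clearly above background. One IL1A probe set lay at or under 2.92 on 11 arrays and at 4.15 on the high 72 h Ota array, and the other lay between 2.35 and 3.04 throughout. IL1B passed the filter narrowly. It read 3.76 on each of the 3 Ota arrays at 24 h and 3.77, 4.30 and 4.39 in controls, a change of -0.39 ± 0.23 (limma adjusted p = 0.158; 0.17 when centred, -2.04 and adjusted p = 1.9e-05 with the spike-ins). At 72 h it read 3.77, 3.99 and 4.54 against 3.76, 4.24 and 3.77, overlapping groups with a change of 0.17 ± 0.23 (adjusted p = 0.533; -0.62 with the spike-ins, -0.046 without Ota 72 h replicate 3). Its second probe set was under the filter and was lower at 24 h by 0.88 in the unfiltered fit (adjusted p = 0.0133), an effect that differed from that at 72 h by 1.06 (adjusted p = 0.0436).

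CCL2, the monocyte chemoattractant, fell with Ota at both times. At 24 h it read 5.00, 5.23 and 6.45 with Ota and 7.81, 7.66 and 8.39 in controls. At 72 h it read 4.43, 5.04 and 6.24 against 7.98, 7.96 and 8.67. In both cases every Ota array lay below every control, replicate 3 being the highest of its group in all 4 groups. The changes were -2.39 ± 0.47 (limma adjusted p = 8.6e-04) and -2.97 ± 0.47 (adjusted p = 1.7e-04), and were called under all 23 alternatives that tested the gene, with adjusted p up to 0.006 and 0.0019. The effects at the 2 times differed by -0.58 ± 0.66 (adjusted p = 0.49). CCL2 is thus the one gene of the 7 called in both Ota comparisons by the probe set that stands for its gene. Its only probe set carries the suffix for probes shared among transcripts. The second TNFAIP3 probe set was also called at both times (2.18 and 1.77, limma adjusted p = 0.00156 and 0.0060).

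CXCL8, the neutrophil chemoattractant interleukin 8, had a different course. It read 10.68, 10.78 and 10.65 with Ota at 24 h and 12.0045, 11.67 and 11.88 in controls. The 3 Ota arrays were tightly grouped and all lower, a fall of 1.15 ± 0.46 that just passed (limma adjusted p = 0.0472). The call was lost in 13 alternatives, among them centring (-0.59, adjusted p = 0.265), 10 of them leaving out a single array (any except Ota 72 h replicates 2 and 3; adjusted p 0.054 to 0.12). The gene's other probe set gave -0.87 (adjusted p = 0.236; 0.0263 without Ota 72 h replicate 3). At 72 h CXCL8 read 11.64, 10.75 and 13.20 with Ota and 12.14, 11.74 and 12.55 in controls. The high replicate 3 lay above all controls and the other 2 below them, so the change was -0.28 ± 0.46 (adjusted p = 0.626). Without that array it was -0.95 (adjusted p = 0.0141), and -1.21 (adjusted p = 0.0101) for the other probe set.

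CXCL1, a chemokine for neutrophils encoded near CXCL8, lay between 2.49 and 2.55 on all 12 arrays, including the array on which IL6 and CXCL8 were high. Its 1 probe set showed no signal over background in any group. The unfiltered fit of every probe set still called its 24 h difference of 0.041 (limma adjusted p = 0.042).

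TNFAIP3 encodes A20, a ubiquitin-editing enzyme that shuts off NF-kB signalling. At 24 h it rose: the Ota arrays read 8.14, 8.77 and 8.17 and the controls 5.43, 5.11 and 6.26. The groups were well apart, by 2.76 ± 0.39 (limma adjusted p = 8.2e-05). The second probe set gave 2.18 (adjusted p = 0.00156), from 6.38, 6.41 and 5.66 with Ota against 3.92, 3.89 and 4.10. With spike-in scaling the rise was 1.11 with 27 probe sets and 0.91 with 24, the latter not called (adjusted p = 0.0685). At 72 h it read 7.06, 7.53 and 8.69 with Ota and 6.84, 6.59 and 7.06 in controls. The lowest Ota array met the highest control, and the difference of 0.93 ± 0.39 missed the threshold (adjusted p = 0.0594; 1.21 and adjusted p = 0.021 when centred). Without Ota 72 h replicate 3 it was 0.46 (adjusted p = 0.256), without Ota 72 h replicate 1 it was 1.28 (adjusted p = 0.018), and without control 24 h replicate 3 its adjusted p was 0.045. The second probe set rose at 72 h, by 1.77 ± 0.46 (adjusted p = 0.0060; 1.07 ± 0.26 and adjusted p = 0.0050 without Ota 72 h replicate 3).

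The TNFAIP3 effect was smaller at 72 h than at 24 h by 1.83 ± 0.56 (difference -1.83, limma adjusted p = 0.0172; -0.98 and adjusted p = 0.2 with the spike-ins), a course opposite to that of IL6 and LIF. Part of this difference lay in the controls, which were higher at 72 h than at 24 h by 1.23 ± 0.39 (adjusted p = 0.0383), a call lost without any of 5 control arrays (24 h replicates 1 and 2, and all 3 at 72 h; adjusted p 0.064 to 0.14). The Ota arrays themselves differed between times by -0.60 ± 0.39 (adjusted p = 0.207; -1.06 and adjusted p = 0.019 without Ota 72 h replicate 3). For the second probe set the difference between times was -0.41 (adjusted p = 0.63), and -1.11 (adjusted p = 0.0273) without Ota 72 h replicate 3.

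NFKBIA encodes IkB-alpha. It read 10.35, 10.33 and 10.30 with Ota at 24 h and 10.56, 10.74 and 10.90 in controls. The groups did not overlap, but the change of -0.40 ± 0.26 did not pass (limma adjusted p = 0.202); it passed without Ota 72 h replicate 3 (adjusted p = 0.04) and with the spike-ins (-2.06, adjusted p = 4.9e-05), and centring turned its sign (0.16). At 72 h it read 10.23, 10.57 and 11.50 with Ota and 10.40, 10.46 and 10.74 in controls, overlapping groups with a change of 0.24 ± 0.26 (adjusted p = 0.461; -0.13 without replicate 3, -0.56 with the spike-ins). The 2 feedback genes therefore differed at 24 h: TNFAIP3 passed the test and NFKBIA did not, though the difference between the genes was not tested. The other NFKBIA probe set was at background (2.30 to 2.34).

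IL6 was among the 7 tested genes only through its Ota arrays, so the counts describe the 7 and support no more. Of them, 1 rose and 2 fell at 24 h (42.9%), where 61.3% of all tested genes were called (20.8% risen and 40.5% fallen). At 72 h 2 rose and 1 fell, where 60.1% of genes were called (24.8% and 35.2%). Ota and control arrays did not overlap for 7 of 7 genes at 24 h and for 3 of 7 at 72 h, against 65.7% and 73.7% of all genes. The median log2 fold change of the 7 was -0.39 at 24 h and 0.24 at 72 h, beside -0.24 and -0.11 over all genes. For the difference between times 2 of 7 were higher and 1 was lower, where 49.5% of all genes were called (29.6% higher and 19.9% lower). In controls from 24 h to 72 h 1 rose, TNFAIP3, where 25.5% of all genes were called (12.2% risen), and 2 of 7 had groups apart, beside 53.5% of all genes. Within the Ota groups from 24 h to 72 h 3 rose (IL6, CXCL8 and LIF), where 60.3% of all genes were called (37% risen), and 3 of 7 had groups apart, beside 62.1%. Of the 3, CXCL8 (1.16, adjusted p = 0.0463) was lost without any array but Ota 72 h replicate 2 (0.49 without Ota 72 h replicate 3), and LIF (0.70, adjusted p = 0.0293) without Ota 24 h replicates 1 or 2 or Ota 72 h replicate 3. Without Ota 72 h replicate 3, 6 of 7 were called at 24 h (IL6, LIF and TNFAIP3 higher, and CXCL8, CCL2 and NFKBIA lower) and 4 at 72 h. Of all genes 61.6% and 57.1% were called then. That array is in neither 24 h group, so the 24 h changes stayed the same and only the shared spread became smaller. It was set apart by these same 7 genes, so these counts are no result about them.

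**Figure D3:**
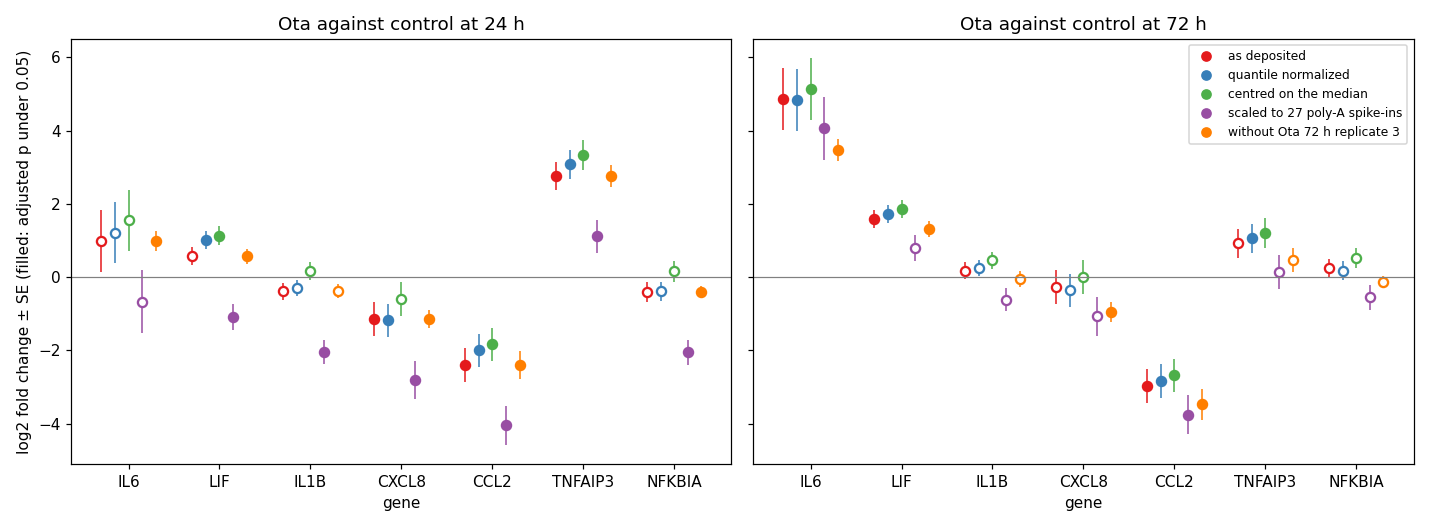
Log2 fold changes ± SE (y axis) of the 7 tested genes (x axis) for Ota against control at 24 h and 72 h, as deposited, under 3 other scalings and without 1 array; filled points have limma adjusted p under 0.05. CCL2 is lower and called at every setting, IL6 at 72 h is higher and called at every setting, and LIF at 24 h runs from 1.13 when centred to -1.08 with the spike-ins.

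The genes around these 10 were read from 7 lists, whose counts are to be read against all tested genes. With centring 43.4% of all genes rose and 26.7% fell at 24 h, and 35.5% and 27.8% at 72 h. With the spike-ins 1.84% rose and 91.7% fell at 24 h, and 6.39% and 60.2% at 72 h, so a list with few or no genes risen there is near all genes. As deposited 20.8% rose and 40.5% fell at 24 h, and 24.8% and 35.2% at 72 h. Among NF-kB subunits and upstream signalling genes, 3 of 22 tested rose and 9 fell at 24 h (5 and 6 when centred; 0 and 21 with the spike-ins), and 6 rose and 6 fell at 72 h (12 and 5 when centred; 1 and 9 with the spike-ins). The 40.9% that fell at 24 h is close to all genes, and the list's medians were -0.32 and 0.16. TRAF5, an adaptor of TNF-family receptors, fell at both times (-3.95 ± 0.58 and -2.29 ± 0.58). BIRC2, the ubiquitin ligase cIAP1, fell at 24 h (-2.61 ± 0.40; -0.40 and adjusted p = 0.405 at 72 h), and RBCK1, a part of the linear ubiquitin ligase complex, fell at both times (-1.27 ± 0.21 and -3.82 ± 0.21). IRAK2, a kinase below the IL-1 receptor, rose at both times (1.72 ± 0.42 and 2.14 ± 0.42). With spike-in scaling its 24 h change was 0.07 with 27 probe sets and -0.13 with 24.

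Apart from TNFAIP3 and NFKBIA, 17 feedback inhibitors of NF-kB were tested. At 24 h 1 rose and 10 fell (3 and 8 when centred, 1 and 16 with the spike-ins, 2 and 10 without Ota 72 h replicate 3), with a median of -0.72 against -0.24 over all genes. At 72 h 3 rose and 3 fell (7 and 3 when centred, 2 and 9 with the spike-ins). CYLD, a deubiquitinase that opposes NF-kB activation, rose by 2.62 ± 0.18 at 24 h and 1.35 ± 0.18 at 72 h (the latter not called with the 24 spike-ins). OTULIN, which cleaves linear ubiquitin chains, fell at 24 h from 6.46 ± 0.25 to 2.25 ± 0.39 (-4.20 ± 0.24), and was not called at 72 h (-0.41, adjusted p = 0.159). OTUD7B, another deubiquitinase, fell at both times (-2.75 ± 0.26 and -1.74 ± 0.26). At 72 h IL1R2, a decoy receptor for IL-1, rose from 4.51 ± 0.10 to 7.80 ± 0.51 (3.29 ± 0.25), and SIGIRR, a negative regulator of IL-1 receptor signalling, fell by 1.89 ± 0.24, after -1.38 ± 0.24 at 24 h.

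Of the receptors for these cytokines and for TNF, 4 of 11 rose and 3 fell at 24 h (5 and 2 when centred, 0 and 10 with the spike-ins), and 5 rose and 2 fell at 72 h (6 and 2 when centred, 2 and 3 with the spike-ins, 3 and 2 without Ota 72 h replicate 3). TNFRSF1A, the main TNF receptor, fell at 24 h from 9.30 ± 0.15 to 5.82 ± 0.33 (-3.47 ± 0.20), and was not called at 72 h (-0.048, adjusted p = 0.854). IL1RAP, the accessory chain of the IL-1 receptor, rose at 24 h (1.33 ± 0.22), though with spike-in scaling it read -0.32 with 27 probe sets and -0.52 with 24. At 72 h IL6R, the IL-6 receptor chain, and OSMR, which pairs with gp130, rose by 1.496 ± 0.18 and 1.66 ± 0.13 (IL6R was not called with the 24 spike-ins, and 1 of 3 OSMR probe sets went the other way), and LTBR, the lymphotoxin beta receptor, fell (-2.33 ± 0.17). At 24 h IL6R and OSMR rose by 0.64 and 0.51, turning to -1.01 and -1.14 with the spike-ins, and LTBR fell (-0.85; not called when centred). LIFR, the LIF receptor, fell at both times (-1.38 ± 0.35 and -1.35 ± 0.35).

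Among gp130 signalling genes, 2 of 6 rose and 2 fell at 24 h, and 2 rose and 3 fell at 72 h (3 and 2, and 2 and 2, when centred); with the spike-ins 0 rose and 6 and 3 fell. In each list with 0 genes risen under the spike-in scaling, 0 rose at an unadjusted p under 0.05 in limma as well. STAT3, the transcription factor that gp130 activates, rose at both times (0.93 ± 0.14 and 1.27 ± 0.14), but with the spike-ins it read -0.72 at 24 h (adjusted p = 0.0107) and was not called at 72 h. PIAS3, an inhibitor of STAT3, fell at both times (-3.98 ± 0.20 and -1.54 ± 0.20). SOCS3, the feedback inhibitor of gp130, fell at 24 h (-1.37 ± 0.25); 1 of its 3 probe sets went the other way.

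Of 17 other NF-kB target genes tested, 3 rose and 6 fell at 24 h, turning to 7 and 3 when centred and to 0 and 13 with the spike-ins. At 72 h 7 rose and 6 fell (5 and 7 without Ota 72 h replicate 3; 2 and 9 with the spike-ins). VCAM1, an adhesion molecule for leukocytes, fell at both times (-3.87 ± 0.29 and -3.42 ± 0.29), each in the direction of CCL2. The chemokine CXCL2 fell at 24 h (-1.83 ± 0.57; not called when centred; -0.65 and adjusted p = 0.35 at 72 h), and CCL20 rose at 72 h (2.17 ± 0.66, adjusted p = 0.0139). CCL20 had overlapping groups and was not called without Ota 72 h replicate 3 (1.49, adjusted p = 0.0631) or with the spike-ins. IL32 rose at 24 h (1.503 ± 0.29; -0.15 with the spike-ins) and fell at 72 h (-2.30 ± 0.29). C3, the complement component, fell at 72 h (-2.93 ± 0.36).

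The last pair of lists bears on how long cytokine mRNAs last and on how IL-1 is released. Of 14 regulators of cytokine mRNA decay 1 rose and 9 fell at 24 h (3 and 5 when centred, 0 and 14 with the spike-ins; median -0.78), and 5 rose and 5 fell at 72 h (5 and 2 when centred, 0 and 9 with the spike-ins, 3 and 4 without Ota 72 h replicate 3). CNOT7, a deadenylase, fell at both times (-1.503 ± 0.19 and -0.57 ± 0.19, the latter not called when centred), and so did ZFP36L1, which targets AU-rich mRNAs (-0.91 ± 0.16 and -0.92 ± 0.16). At 72 h only 2 of 3 CNOT7 probe sets were lower. KHSRP, another AU-rich element binder, rose at both times (0.55 ± 0.13 and 1.13 ± 0.13), but with the spike-ins it read -1.10 at 24 h (adjusted p = 4.1e-04) and was not called at 72 h. For IL-1 processing and release, 0 of 7 rose and 3 fell at 24 h by limma (0 rose at an unadjusted p under 0.05), turning to 2 and 1 when centred and to 0 and 7 with the spike-ins, and 1 rose and 5 fell at 72 h (2 and 4 when centred, 0 and 6 with the spike-ins; median -1.04). PYCARD, the inflammasome adaptor ASC, fell at both times (-2.40 ± 0.31 and -3.09 ± 0.31), and CASP8, which can cleave IL-1 beta, rose at 72 h (1.35 ± 0.28; not called with the spike-ins).

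**Figure D4:**
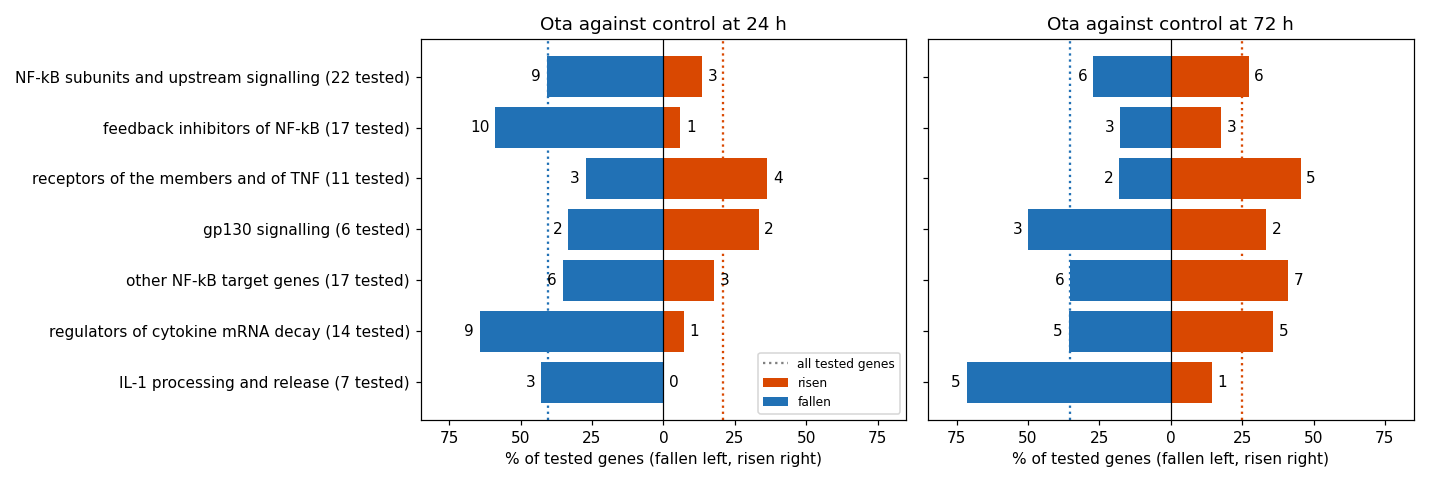
Share of each list's tested genes that fell (left of 0) or rose (right of 0) with Ota at 24 h and at 72 h (x axis, percent; y axis, list), with the number of genes at each bar and dotted lines for all tested genes. At 24 h 10 of 17 feedback inhibitors and 9 of 14 mRNA decay regulators fell, beside 40.5% of all genes.

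For the 4 genes with the widest span of group means, the genes with the nearest pattern over the 12 arrays were found by the root mean square difference between centred values. IL6 spans 4.85 between its lowest and highest group mean. Nearest to it was TNFSF15, a TNF-family cytokine (difference 0.84), then SPINK1, a trypsin inhibitor (0.95). TNFSF15 had means of 5.54 with Ota at 72 h and 2.23 in controls. By excess on Ota 72 h replicate 3 over the other 2 arrays, IL6 ranked 1, SPINK1 6 (2.36) and TNFSF15 7 (2.27). The differences above include that array. Nearest to CCL2 were RNF144B (0.30) and NCK1-DT (0.42), to TNFAIP3 MXD1 and THAP2 (0.50 each), and to LIF PIP5K1A (0.20) and TGFA (0.21), the growth factor. These are descriptions over arrays that share their scaling.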

How the data were processed

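RNA of HK-2 cells was profiled on 12 Affymetrix arrays, 3 for each of 4 groups given by the labels. The authors deposited log2 values, 1 per probe set and array, computed with GCRMA per the submitters' processing notes; its version, the arrays normalized together and the genome build are not given in the sources used here. The values were used as deposited. Probe sets were named by the platform annotation. The table held 54675 probe sets and 0 columns from outside the series.

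Probe sets naming 1 symbol were kept if they exceeded 4 on 3 or more arrays, and the one with the highest overall mean stood for its gene (10729 genes). In limma 3.58.1 (R 4.3.3), 4 group means were fitted (residual degrees of freedom 8, prior 3.56), two-sided, with Benjamini-Hochberg adjustment over all genes and a threshold of 0.05. The median SE of a log2 fold change was 0.21. The contrasts were Ota against control at each time, the difference of these effects, and 72 h against 24 h within control and within Ota. Array-wide measures were compared by exact permutation. The number of arrays limits the precision. The fit was tested on simulated data.

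The members, pathway lists, markers and rules were chosen with earlier results of these data known. All 10 members are named. From each list, up to 3 genes past the threshold with the largest change at each time, and the 1 largest in the other direction, could be named. Likeness was measured for the 4 tested members with the widest span of group means, naming the 2 nearest genes. Motifs were searched in RefSeq promoters of GRCh38.p14.

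Deviations of equally numbered arrays from their group means correlated with r = 0.12, 0.23 and 0.27 at 24 h, over 0.1 for every pair, so the numbers were taken to pair the arrays there. At 72 h they were -0.05, 0.14 and 0.19. Other settings were quantile normalization, centring on the median, scaling to 27 poly-A spike-ins, no filter, a filter at 6, the mean over probe sets, all probe sets fitted, no cross-hybridizing probe sets, a variance trend with robust moderation, only the arrays of a comparison, the replicate block, and leaving out each array. Scaling to 24 spike-ins, list counts and probe set fits without Ota 72 h replicate 3, and the unfiltered fit of every probe set were added after seeing the data.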

Additional observations from a re-analysis of the deposited data

Results flagged for a closer look

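Of the 7 tested genes, 3 had an Ota effect that differed between 72 h and 24 h by the test of the difference itself (limma, Benjamini-Hochberg adjusted). For IL6 the effect at 72 h exceeded that at 24 h by 3.87 (adjusted p = 0.0197), and for LIF by 1.01 (adjusted p = 0.033). IL6 was tested only through its Ota arrays, and with no filter its difference was not called (adjusted p = 0.0747). The LIF call was lost with no filter too. For TNFAIP3 the difference was -1.83 (adjusted p = 0.0172), from 2.76 at 24 h to 0.93 at 72 h. Its second probe set gave -0.41 (adjusted p = 0.63), from 2.18 to 1.77. The TNFAIP3 call was lost with either spike-in scaling, with no filter and with the mean over probe sets. Without Ota 72 h replicate 3 the IL6 difference was 2.49, and that of LIF was 0.75 and no longer called (adjusted p = 0.068). No group had enough arrays for a test of single outlying values, since each held 3.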

How the results depend on the processing

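Of the gene values under the alternatives, 676 kept their direction and side of the threshold, 62 lost a call, 34 gained one, and 20 uncalled values moved or turned sign. The other 2 turned sign and were called only in the alternative. They were LIF at 24 h, not called as deposited, at -1.08 with 27 spike-ins and -1.28 with 24. For 3 genes called at 24 h, 6 were called with 27 spike-ins (1 higher, 5 lower) and 5 with 24 (0 higher, 5 lower), 5 with only the arrays of the comparison, and 0 by limma without _x_at and _s_at probe sets, where TNFAIP3, CXCL8 and CCL2 could not be tested and 1 of 3 tested genes had an unadjusted p under 0.05; leaving out 1 array gave 2 to 6. At 72 h the count was 2 to 4 under all settings run. For the difference between times, with 3 called, 24 spike-ins gave 5 and no filter gave 0 by limma (3 at an unadjusted p under 0.05), while IL6, LIF and TNFAIP3 kept their values and had adjusted p of 0.0747, 0.081 and 0.06. For controls over time, with 1 called, either spike-in scaling, no filter, the mean over probe sets and no _x_at or _s_at probe sets gave 0 by limma (1, 1, 1, 0 and 0 in that order at an unadjusted p under 0.05, counting each spike-in scaling), the control arrays alone gave 2, and leaving out 1 array gave 0 to 2. For Ota over time, with 3 called, centring gave 1, the spike-ins 5 and 5, no filter 1, the Ota arrays alone 0 by limma (2 unadjusted), and leaving out 1 array gave 1 to 3.

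With the replicate block 4 genes were called at 24 h (LIF joined, adjusted p = 0.028), 3 at 72 h, and 3 in the test of the difference; it changed no other call. At 24 h, of all genes called, 34% were higher as deposited, 45% after quantile normalization, 61.9% after centring, 1.96% with 27 spike-ins and 1.49% with 24; the median of all genes moved from -0.24 to -0.037, 0.32, -1.89 and -2.09. Which scaling holds was not tested. Signal near background limits IL6 in controls, IL11, IL1A, IL1B and CXCL1, whose differences there have no reliable size.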

Other observations

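The genes that stood highest on replicate 3 of the 72 h Ota group, relative to the other 2 arrays, were chosen after their values were seen and have no test. After IL6 they included the chemokine CXCL2 (10.89 against 8.20 and 8.69), MIR146A, the annotated gene of the transcript that hosts a microRNA known to dampen NF-kB signalling (7.06 against 4.43 and 4.92), SPINK1 (7.12 against 4.81 and 4.70), TNFSF15 (7.06 against 4.86 and 4.71) and CCL20 (9.44 against 6.54 and 8.31). On this array some of the 20 highest lay nearer to the 72 h control mean than on the other 2, among them PAX8 (9.16 against 7.69 and 7.13; control mean 9.58), CLDN16 (7.82 against 5.74 and 6.07; 9.46), STAT4 (5.99 against 4.82 and 3.58; 8.57), C1RL (5.72 against 3.57 and 3.57; 7.26) and TBC1D16 (4.67 against 3.29 and 2.62; 6.99). For IL6, SPINK1 and TNFSF15 (control means 2.62, 2.82 and 2.23) the array lay farther from the controls than the other 2. CXCL2 (control mean 9.92) and CXCL8 (12.14) lay above the control mean on this array and below it on the other 2. On replicate 3 of the 72 h controls MIR146A, CCL20, CXCL2 and CXCL8 also exceeded the other 2 controls, by 2.15, 1.84, 1.13 and 0.62. Their excess on the Ota array was 2.39, 2.01, 2.44 and 2.01. Of the other genes named here, CLDN16 exceeded those controls by 1.18, IL6 by 0.37, TBC1D16 by 0.28, SPINK1 by 0.09 and TNFSF15 by 0.05. PAX8, STAT4 and C1RL did not exceed them.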
